A study of Mus musculus with 4 samples.

Results

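The genes described here encode the factors that start protein synthesis on ribosomes and carry the growing chain forward. They are the genes whose array name begins with Eif or Eef and a number, leaving out the Eif2ak kinases. The rule gave 60 genes with 134 probe spots, of 28304 gene names and 43379 gene spots on the array, and 58 of the 60 were measured. The rule takes in 4 genes named Eif2c1 to Eif2c4 in the files, whose current RefSeq symbols are Ago1 to Ago4. They encode Argonaute proteins, which carry small RNAs and are not translation factors, and they are given apart. Of the other members, Eif1ay is now Eif1ax (its probe lies on chromosome X) and Eif3j is now Eif3j1.

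RNA came from cells sorted from colonic crypts of normal adult mice, and the study compared 2 sorted populations. The mice carried the knock-in allele Lgr5_EGFP-ires-CreERT2, in which the promoter of Lgr5, a receptor gene of crypt base stem cells, drives GFP, and 1 population was sorted for GFP. The other was sorted for high CD24, a surface protein, with a PE-conjugated antibody, which the series design gives as a way to obtain part of the goblet cells. No treatment is stated for either, and the labels do not say whether animals were pooled. Each of 4 arrays carried both RNAs, and the arrays form 2 replicates, each with a first array (Lgr5-GFP RNA in Cy3) and a dye swap (Lgr5-GFP RNA in Cy5). All values are log2 ratios of the RNA labelled Lgr5-GFP over the RNA labelled CD24hi. Each replicate lay on its own slide. Whether the replicates were separate animals is not stated in the labels, so the spread behind each p-value is that between 2 samples and may be technical.

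Initiation begins when eIF2 brings the initiator tRNA to the small ribosomal subunit, with eIF1, eIF1A, eIF3 and eIF5 bound there. The eIF4F complex, made of a cap-binding protein, a scaffold and an RNA helicase, recruits the mRNA, and eIF5B joins the large subunit. In elongation, eEF1A delivers each aminoacyl-tRNA, the eEF1B subunits recharge it with GTP, and eEF2 moves the ribosome one codon on. In gut epithelium, stem and progenitor cells grow and divide, whereas goblet cells put much of their synthesis into secreted mucin.

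The genes used for the sorts had ratios opposite to the labels. Lgr5 was at -3.41 ± 0.29 (SD, n = 2 replicates; limma, adjusted p = 0.000463) and Cd24a, which encodes CD24, at 2.12 ± 0.30 (limma, adjusted p = 0.000596). Every direction below is that of the labels, and would turn with the labels. The RNA labelled Lgr5-GFP had higher levels of all 5 goblet markers (1.30 to 3.76). All 4 measured crypt base markers (-3.41 to -1.12; Olfm4 was not measured) and all 4 proliferation markers (-3.03 to -1.84) were lower. Of the other lists, 2 of 6 epithelial markers were lower (-0.63 to 0.09), and none of the 3 measured of 6 immune, 3 of 5 stromal and endothelial or 1 of 3 red blood cell markers was called. Ptprc and Pecam1 were not well above background on all arrays in either RNA, and no probe was matched to Hbb-b1. In such bulk samples, fewer cells of a type and less RNA per cell cannot be told apart. The part of these marker differences in the results below was not tested.

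The array values behind the results came from 60-base probes, placed on mouse build mm9. Each probe printed here spans well over its own length of the genome, so its 60 bases are not contiguous there and cross an intron. The probes of the scaffold genes Eif4g1 and Eif4g3 are shown because both genes ran against the direction of most others and are close relatives. Capitals mark the bases that are identical between them, 39 of the 53 that overlap when they are set side by side without gaps (73.6%). The Eif4g1 probe spans chr16:20689378-20692351 (plus strand) and the Eif4g3 probe chr4:137759386-137761926 (plus strand).
Eif4g1: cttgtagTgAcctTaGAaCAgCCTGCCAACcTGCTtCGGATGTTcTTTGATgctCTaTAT
Eif4g3: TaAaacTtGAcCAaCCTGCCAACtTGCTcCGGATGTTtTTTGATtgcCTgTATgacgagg

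A second set shows 3 genes of the larger group with lower ratios, each by a probe that crosses an intron. The Eif3a probe spans chr19:60845888-60846942, the Eef1d probe chr15:75725979-75726178 and the Eif3e probe chr15:43109966-43114205, all on the minus strand. For Eif3a and Eef1d this is the probe whose ratio is reported. For Eif3e it is the dimmer of its probes, at a log2 ratio of -1.16, beside -1.04 for the brighter one.
Eif3a: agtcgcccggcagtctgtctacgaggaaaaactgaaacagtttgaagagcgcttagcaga
Eef1d: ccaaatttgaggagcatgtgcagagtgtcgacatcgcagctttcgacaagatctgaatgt
Eif3e: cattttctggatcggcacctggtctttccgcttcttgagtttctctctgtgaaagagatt

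Across the 58 measured genes, most ratios lay below 0. The eIF3 and eEF1B subunits and most of the start site group lay at the low end, Eif4g1 and Eif4g3 at the high end. Limma called 28 genes lower in the RNA labelled Lgr5-GFP at an adjusted p under 0.05 (48.3% of the 58, beside 25.7% of all 14806 genes tested). It called 5 higher (8.62%, beside 21.9% of all genes), and 25 were not called. The median ratio was -0.38, beside -0.07 over all genes, and the range ran from -1.04 to 0.73. The ratio was below 0 on every array with a value for 34 genes (58.6%, beside 41.0% of all genes) and above 0 on every such array for 5 (8.62%, beside 30.3%). All 58 passed a filter for signal well above background, which 1 or both RNAs had to reach on each of the 4 arrays. Eif2b3 and Eef1a2 did not pass, as each was above background on 1 of 4 arrays in either RNA.

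These counts rest on how the background of 1 array was treated and on the first array of replicate 1. When spots with a non-uniform local background were kept in the background fit, limma called 2 members lower (3.45%, beside 3.21% of all genes in that setting) and 0 higher (beside 4.21%), so the share of lower members was then close to that of all genes. In the same setting 25 were lower and 3 higher at an unadjusted p under 0.05 and all 33 genes called above kept their sign. Without the first array of replicate 1, limma called 0 of 41 measured members (14 lower and 0 higher at an unadjusted p under 0.05), beside 8.01% lower and 8.30% higher of 6021 genes, and their median ratio was -0.50. Without the dye swap of replicate 1, it called 30 lower (51.7%, beside 30.6% of all genes) and 11 higher (19.0%, beside 26.9%). On that dye swap 75.3% of gene spots were marked as outliers by the scanner software and left out, beside 0.23% to 0.51% on the other arrays. There 19 of the 58 genes had no value, so their ratio in replicate 1 is that of its first array alone. For these genes the dyes were not balanced in replicate 1.

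**Figure D1:**
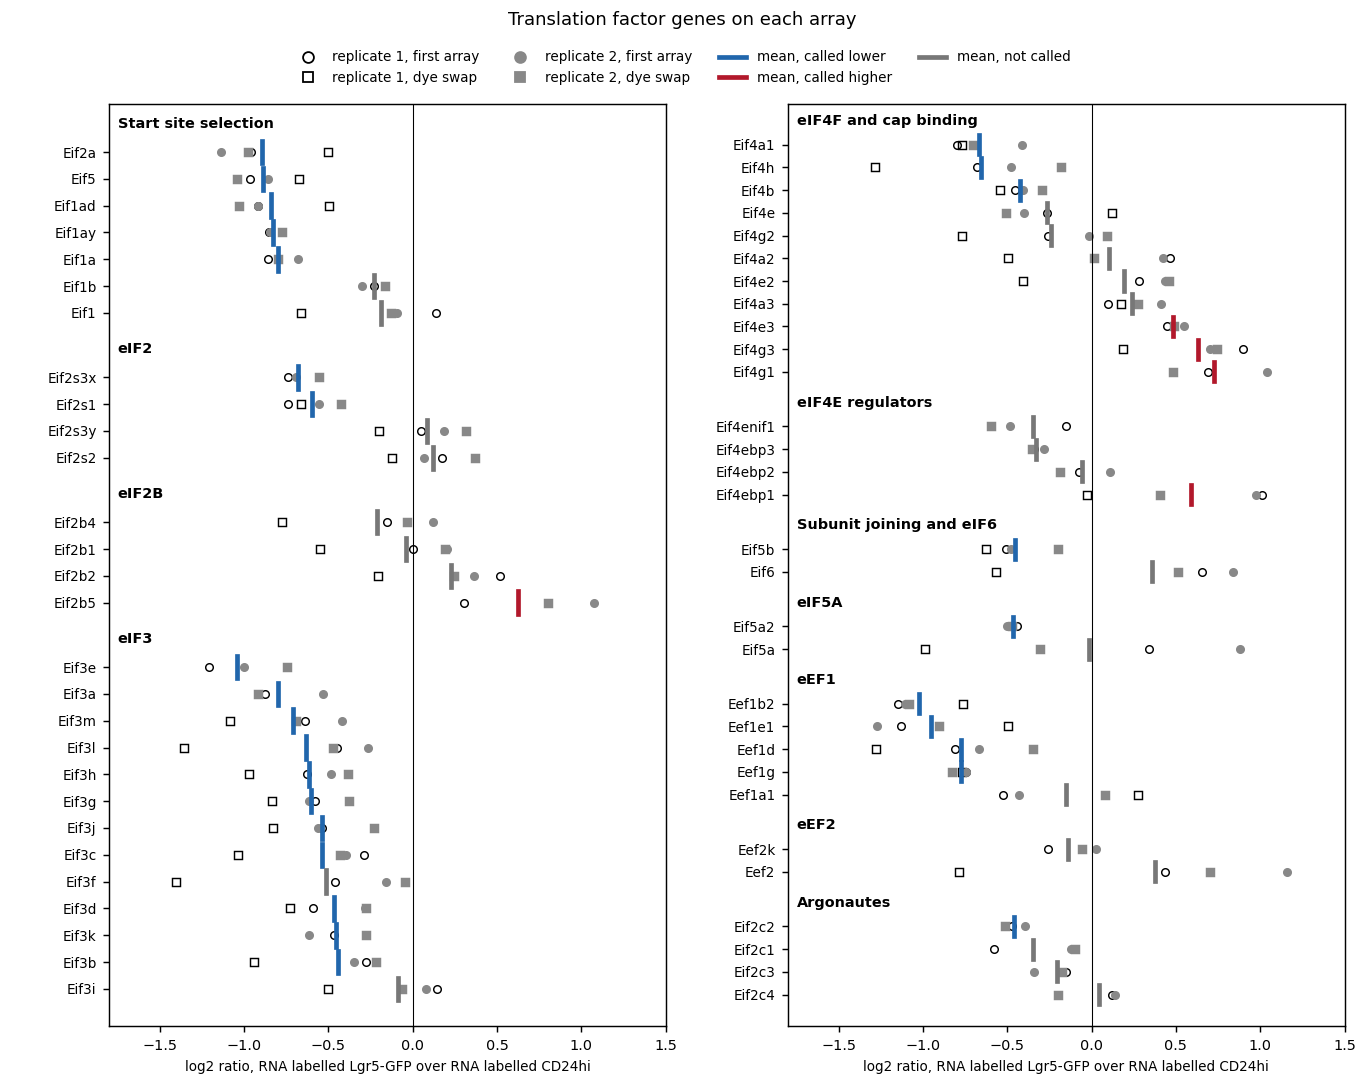
Log2 ratio of the RNA labelled Lgr5-GFP over the RNA labelled CD24hi for the 58 measured genes, by role. Open symbols are the arrays of replicate 1 and filled grey symbols those of replicate 2 (circles, first arrays; squares, dye swaps), and coloured bars are means over the 2 replicates. The eIF3, eEF1 and start site groups lie mostly left of 0, while eIF4F holds genes on both sides.

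The arrays differed in level. The median over members was -0.39 on the first array of replicate 1, -0.66 on its dye swap, -0.35 on the first array of replicate 2 and -0.22 on its dye swap, and 40 of 58, 35 of 39, 38 of 58 and 42 of 58 genes lay below 0. In replicate 1 the dye swap was lower than the first array for 29 of 39 members (median difference -0.44), and for 3813 of 5370 genes in all (-0.35). In replicate 2 that held for 30 of 58 members, with a median difference of -0.02. The 39 members with a value on every array had a median of -0.34 on the first arrays and of -0.50 on the dye swaps. Between replicates, 10 of the 58 genes had opposite signs.

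**Figure D2:**
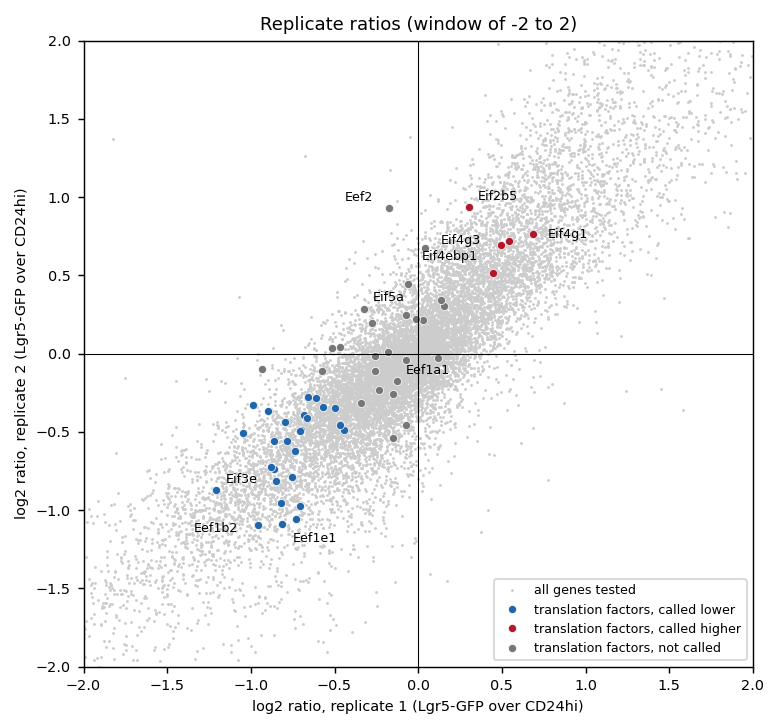
Log2 ratio in replicate 2 against replicate 1 for all genes tested (small grey points, window of -2 to 2) and the 58 translation factor genes (larger points, coloured by call). The 28 genes called lower lie below 0 in both replicates, the 5 called higher above 0 in both, and Eef2 and Eif5a lie at opposite signs.

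In the group for start site selection, 5 of 7 genes were lower (beside 25.7% of all genes tested) and none higher (beside 21.9%). By the brightest probe of each gene, the 5 lay close together, from -0.89 to -0.80, but other probes of some lay further apart. The grouping is loose, as it takes in Eif2a and Eif1ad beside Eif5 and the eIF1 and eIF1A genes. Eif2a encodes eIF2A, a single protein that can deliver initiator tRNA without eIF2. In replicate 1 its ratio was -0.96 on the first array and -0.50 on the swap, and in replicate 2 these were -1.14 and -0.98. Its level was lower by 1.86-fold, at -0.89 ± 0.23 (SD, n = 2; limma, adjusted p = 0.00433). All 4 arrays were below 0, with the dye swap of replicate 1 nearest to it.

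Eif5 encodes eIF5, which triggers GTP hydrolysis by eIF2 at the start codon. In the same order of arrays its ratios were -0.96, -0.67, -0.86 and -1.04, a 1.85-fold difference (-0.89 ± 0.10; limma, adjusted p = 0.00315). Its kept probes ran from -1.97 to -0.67, all of 1 sign. Eif1ay, now Eif1ax, encodes eIF1A, which helps the small subunit scan. It had -0.85 on both first arrays and -0.77 on the dye swap of replicate 2, with no value on the other swap (-0.83 ± 0.03; limma, adjusted p = 0.00356).

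Its relative Eif1a had -0.86, -0.68 and -0.80 on the same 3 arrays (-0.80 ± 0.08; limma, adjusted p = 0.00423). The other kept probes of Eif1a were at -0.87 and -0.13. Eif1ad, a gene with an eIF1A-like domain, had -0.92, -0.50, -0.92 and -1.03 (-0.84 ± 0.19; limma, adjusted p = 0.00459), but its other kept probe was at 0.06. Eif1 and Eif1b encode the closely related eIF1 proteins, which guard the accuracy of start codon choice. Eif1 had 0.14, -0.66, -0.09 and -0.13 (mean -0.19; limma, adjusted p = 0.271), and its arrays lay on both sides of 0. Eif1b had -0.23, -0.30 and -0.17 on its 3 arrays (mean -0.23; limma, adjusted p = 0.168), all below 0 but within the spread the fit allows.

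The subunits of eIF2, the carrier of initiator tRNA, did not all show the same call. Eif2s1, the alpha subunit that stress kinases phosphorylate, had -0.74, -0.66, -0.56 and -0.42, and was 1.51-fold lower (-0.60 ± 0.15; limma, adjusted p = 0.0133). Eif2s3x, an X-linked gene for the gamma subunit, had -0.74, -0.69 and -0.55 on 3 arrays (-0.68 ± 0.08; limma, adjusted p = 0.00726), and its other kept probes were nearer to 0, up to 0.02. Its Y-linked relative Eif2s3y had 0.05, -0.20, 0.19 and 0.31 (mean 0.09; limma, adjusted p = 0.644). Eif2s2, the beta subunit, had 0.17, -0.12, 0.07 and 0.37 (mean 0.12; limma, adjusted p = 0.473). For both, the arrays lay on both sides of 0. Probes for such close relatives may share signal.

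Of eIF2B, the exchange factor that returns eIF2 to its GTP form, 1 of 4 measured subunits was called. It was higher, as were 21.9% of all genes tested. Eif2b5, the catalytic epsilon subunit, had 0.30 on the first array of replicate 1 and 1.07 and 0.80 on the arrays of replicate 2. It was 1.54-fold higher (0.62 ± 0.45; limma, adjusted p = 0.0343). Replicate 1 was at 0.30 and replicate 2 at 0.94, and 7 of the 15 alternative settings that measured the gene called it. The other subunits were at 0.23 (Eif2b2), -0.04 (Eif2b1) and -0.21 (Eif2b4), and none was called. Without the dye swap of replicate 1, Eif2b2 was at 0.41 (limma, adjusted p = 0.0196).

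The eIF3 complex, which holds the small subunit open for mRNA loading, gave calls in 1 direction. All 13 subunits had a mean ratio below 0 (median -0.54). Of these, 11 were called lower (beside 25.7% of all genes tested) and none higher (beside 21.9%). Eif3e had -1.21 on the first array of replicate 1 and -0.999 and -0.746 on the arrays of replicate 2, with no value on the other swap. It was 2.06-fold lower (-1.04 ± 0.24; limma, adjusted p = 0.00277), the lowest ratio of all 58 genes. Eif3a, the large scaffold subunit, had -0.88, -0.53 and -0.92 on the same 3 arrays and was 1.74-fold lower (-0.80 ± 0.11; limma, adjusted p = 0.00438).

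Eif3m had -0.64, -1.08, -0.42 and -0.69 (-0.71 ± 0.21; limma, adjusted p = 0.00896), and Eif3l had -0.45, -1.35, -0.26 and -0.47 (-0.63 ± 0.38; limma, adjusted p = 0.0243). In both, the dye swap of replicate 1 was the lowest array. Together with Eif3c (-0.54), Eif3h (-0.62), Eif3k (-0.46) and Eif3f (-0.52), these form the octamer at the body of the complex. Of the 8, 7 were called lower (beside 25.7% of all genes tested). Eif3f was not called (limma, adjusted p = 0.0965), as its arrays ran from -1.40 on the dye swap of replicate 1 to -0.04 on that of replicate 2.

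Outside the octamer, Eif3g (-0.60), the loosely bound Eif3j (-0.54), Eif3d (-0.47), which can itself bind a cap, and Eif3b (-0.45) were lower. Eif3i, a propeller-shaped partner of Eif3b, was at -0.09 and was not called (limma, adjusted p = 0.616). The call of Eif3b changed with the probe and the arrays used. Its other kept probe was at 0.72, the mean of its probes was 0.14, and without the dye swap of replicate 1 its ratio was -0.28 (limma, adjusted p = 0.0609).

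The eIF4F group, which binds the cap and unwinds the leader of the mRNA, had calls in both directions: of 11 genes, 3 were lower, 3 higher and 5 not called, with a median of 0.10. These shares are close to those of all genes (25.7% lower and 21.9% higher). The scaffold genes Eif4g1 and Eif4g3 were higher. Eif4g1 had 0.69 on the first array of replicate 1 and 1.04 and 0.49 on the arrays of replicate 2, and was 1.65-fold higher (0.73 ± 0.05; limma, adjusted p = 0.00558). Eif4g3 had 0.90, 0.19, 0.70 and 0.74 and was 1.55-fold higher (0.63 ± 0.13; limma, adjusted p = 0.0102). Their probes are the pair printed above. The second kept probe of Eif4g1 was nearer to 0, at 0.09. Eif4g2 encodes a relative that lacks the cap-binding contact, and had -0.26, -0.77, -0.02 and 0.09 (mean -0.24; limma, adjusted p = 0.290), on both sides of 0.

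The helicase genes differed among themselves. Eif4a1, the main helicase of the complex, had -0.80, -0.77, -0.41 and -0.70, all below 0, and was 1.59-fold lower (-0.67 ± 0.16; limma, adjusted p = 0.00917). Eif4a2 had 0.46, -0.49, 0.42 and 0.02 (mean 0.10; limma, adjusted p = 0.560). Without the dye swap of replicate 1 it was at 0.34 (limma, adjusted p = 0.0418). Eif4a3, a subunit of the exon junction complex rather than of eIF4F, had 0.10, 0.17, 0.41 and 0.28 (mean 0.24; limma, adjusted p = 0.180), above 0 on every array but not called. The helicase partners Eif4h and Eif4b were lower. Eif4h had -0.68, -1.29, -0.48 and -0.18 (-0.66 ± 0.46; limma, adjusted p = 0.0305), and Eif4b had -0.45, -0.55, -0.41 and -0.29 (-0.42 ± 0.11; limma, adjusted p = 0.0365). Other kept probes of Eif4b ran from -0.63 to 0.32.

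Of the cap-binding proteins, Eif4e, the one in eIF4F, had -0.27, 0.12, -0.40 and -0.51 (mean -0.26; limma, adjusted p = 0.188), with the dye swap of replicate 1 alone above 0. Without that dye swap Eif4e was at -0.36 (limma, adjusted p = 0.0301). Eif4e2, which represses the mRNAs it binds, had 0.28, -0.40, 0.43 and 0.46 (mean 0.19; limma, adjusted p = 0.373), again with that dye swap alone on the other side. Without it Eif4e2 was at 0.36 (limma, adjusted p = 0.0285). Eif4e3 had 0.45, 0.55 and 0.49 on its 3 arrays and was 1.40-fold higher (0.48 ± 0.05; limma, adjusted p = 0.0220). Its probe was dim, with signals of 197, 134.5 and 216 in the RNA labelled Lgr5-GFP, beside medians over all gene spots of 109, 94.2 and 164. Over the 15 alternative settings that measured it, its ratio ran from 0.24 to 1.07, and 11 called it.

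The proteins that hold eIF4E away from the scaffold gave 1 called gene. Eif4ebp1, the repressor that mTORC1 inactivates by phosphorylation, had 1.01, -0.02, 0.97 and 0.41 and was 1.51-fold higher (0.59 ± 0.14; limma, adjusted p = 0.0132). All arrays but the dye swap of replicate 1 were above 0. Eif4ebp2 had -0.07, 0.11 and -0.19 (mean -0.06), and Eif4ebp3 had -0.34, -0.28 and -0.35 (mean -0.33; limma, adjusted p = 0.0720). Eif4ebp3 was below 0 on all 3 arrays and missed the threshold, which it passed without the dye swap of replicate 1 (limma, adjusted p = 0.0352), although that array gave it no value. Eif4enif1, which carries eIF4E into the nucleus, was at -0.35 and was not called.

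Subunit joining and the eIF5A genes gave 1 call each. Eif5b, which joins the large subunit, had -0.51, -0.62, -0.48 and -0.20 and was 1.37-fold lower (-0.45 ± 0.16; limma, adjusted p = 0.0336), with other probes from -0.62 to 0.20. Eif6, which keeps the subunits apart until the large one is mature, had 0.65, -0.57, 0.84 and 0.51 (mean 0.36; limma, adjusted p = 0.153). Without the dye swap of replicate 1 it was at 0.66 (limma, adjusted p = 0.00182).

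The eIF5A protein helps the ribosome through difficult peptide bonds and carries the modified lysine hypusine. Eif5a2 had -0.44, -0.50 and -0.47 on its 3 arrays, within 0.03 (SD) between replicates, and was 1.38-fold lower (-0.47; limma, adjusted p = 0.0246). Its replicate 1 was the first array alone. The probe was dim, with signals of 207, 168 and 280 in the RNA labelled Lgr5-GFP, beside medians over all gene spots of 109, 94.2 and 164. Eif5a had 0.34, -0.99, 0.88 and -0.31. Its first arrays were above 0 and its swaps below, so the mean of -0.02 (limma, adjusted p = 0.944) covers opposite dye orientations. It was 0.31 without the dye swap of replicate 1 (limma, adjusted p = 0.0417).

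In elongation, the genes for eEF1B, the complex that recharges eEF1A with GTP, were lower throughout. Eef1b2, the exchange subunit, had -1.15, -0.76, -1.11 and -1.08 and was 2.03-fold lower (-1.02 ± 0.10; limma, adjusted p = 0.00204). Eef1g had -0.74, -0.77, -0.75 and -0.83, the closest agreement over 4 arrays among the lower genes shown, and was 1.71-fold lower (-0.77 ± 0.02; limma, adjusted p = 0.00444). Eef1d, the other exchange subunit, had -0.81, -1.28, -0.67 and -0.35 (-0.78 ± 0.38; limma, adjusted p = 0.0125). All 3 lay below 0 on every array.

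Eef1e1, a small protein of the multi-tRNA synthetase complex with an eEF1-like fold, had -1.13, -0.50, -1.27 and -0.91 and was 1.93-fold lower (-0.95 ± 0.19; limma, adjusted p = 0.00318). Eef1a1, the tRNA carrier itself, had -0.53, 0.28, -0.43 and 0.08 (mean -0.15; limma, adjusted p = 0.356). Its first arrays were below 0 and its swaps above, the reverse of Eif5a, and its other kept probe was at -0.61. Without the dye swap of replicate 1, Eef1a1 was at -0.35 and was called lower, close to the threshold. Eef1a1 has many processed copies in the genome, so its probes are uncertain. Its relative Eef1a2 was not measured.

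The translocation factor Eef2 had 0.43, -0.79, 1.16 and 0.70 (mean 0.38; limma, adjusted p = 0.286), with opposite signs in the replicates (-0.18 and 0.93). Without the dye swap of replicate 1 it was at 0.68 (limma, adjusted p = 0.00597). The kinase that inhibits eEF2, Eef2k, was at -0.14 and was not called. Of the Argonaute genes, Eif2c2 (Ago2), which can cut its target RNA, was lower at -0.47, -0.39 and -0.52 on 3 arrays (-0.46 ± 0.01; limma, adjusted p = 0.0250), but its other kept probes lay at 0.02 and 0.05. Eif2c1 (-0.35), Eif2c3 (-0.20) and Eif2c4 (0.05) were not called. Leaving out the Argonautes gave 27 lower (50%, beside 25.7% of all genes) and 5 higher (9.26%, beside 21.9%) of 54 genes, with a median of -0.43.

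Different probes of a gene were a further measure of spread. Of 35 genes with more than 1 kept probe, 23 had 1 sign over all probes, and of the 19 called ones among them 13 did. The median range between probes of a gene was 0.40. The 6 called genes whose probes lay on both sides of 0 were Eif1ad, Eif2c2, Eif2s3x, Eif3b, Eif4b and Eif5b, all called lower.

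**Figure D3:**
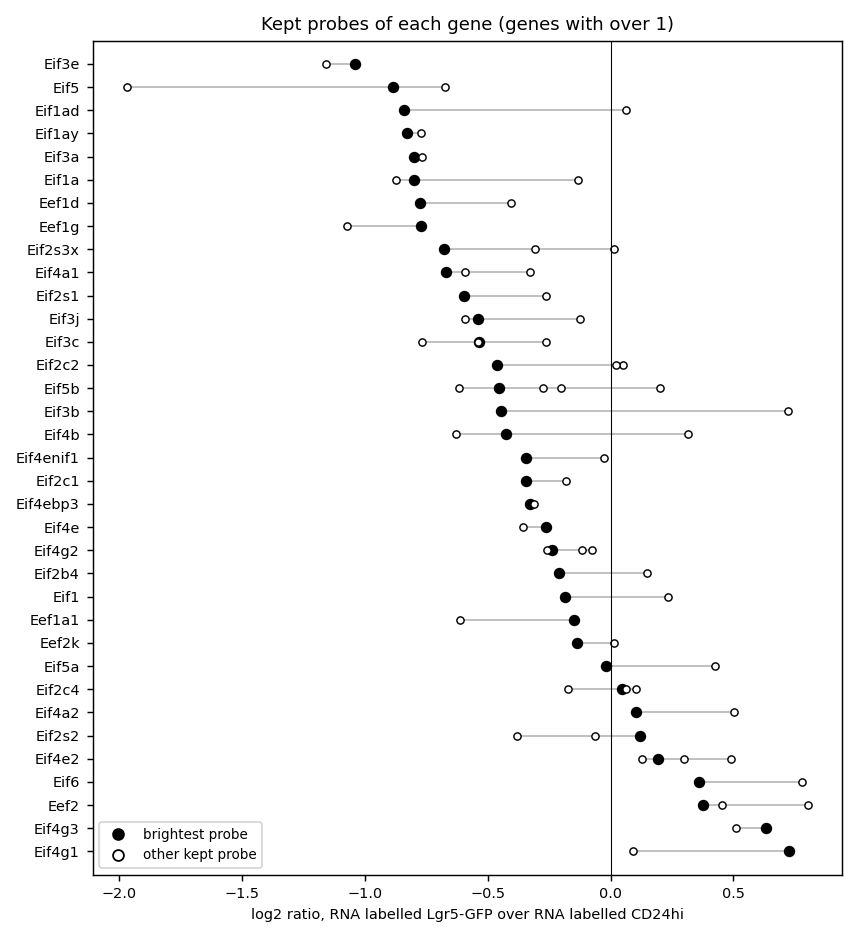
Mean log2 ratio of every kept probe for the 35 genes with more than 1, ordered by the ratio reported (filled points, brightest probe; open points, other kept probes; lines join the probes of 1 gene). Both Eif3e probes lie near -1, whereas those of Eif3b lie at -0.45 and 0.72.

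Genes outside the rule that act on these factors were read from lists of related pathways. The lists were chosen with earlier results of these data known, so their counts beside the shares of all genes are a description and not a test. The kinases that phosphorylate Eif2s1 and so limit initiation ran the other way. Of these, 3 of 4 were higher (beside 21.9% of all genes tested) and none lower (beside 25.7%). Eif2ak3 (PERK), the kinase of the endoplasmic reticulum, had 1.78, 0.58, 1.48 and 1.75 and was at 1.39 ± 0.31 (limma, adjusted p = 0.00149). Eif2ak1 was at 0.66 and Eif2ak4 (GCN2), the sensor of amino acid shortage, at 0.54. Eif2ak2, which senses double-stranded RNA, was at -0.36 and was not called (limma, adjusted p = 0.0726).

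Of 13 measured genes of the integrated stress response, which eIF2 phosphorylation starts, 8 were higher and 1 lower, with a median of 0.59. Of all genes tested, 21.9% were higher and 25.7% lower. Nupr1, a stress-induced chromatin protein, was highest at 4.23 ± 0.18, followed by Chac1, a glutathione-degrading enzyme (2.23), Vldlr, a lipoprotein receptor (1.53), and Asns, asparagine synthetase (1.42). Atf4, the transcription factor of the pathway, and Ddit3, its target, were both at 0.65. Ppp1cc, a phosphatase subunit that can act on eIF2, was the lower one at -1.03. Trib3 (0.08), Cebpg (0.09), Atf5 (0.29) and Sesn2 (-0.31) were not called. Goblet cell markers were higher in the same RNA, and their part in this result was not tested.

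The mTORC1 list, a pathway that promotes initiation through Eif4ebp1 and S6 kinases, was mixed. In it 9 of 20 genes were higher (beside 21.9% of all genes tested) and 4 lower (beside 25.7%), with a median of 0.22. Rps6, the ribosomal protein that S6 kinases phosphorylate, was lowest at -1.20, and Akt1s1, an inhibitor of the complex, highest at 0.99. The S6 kinase genes differed in sign, at -0.56 for Rps6kb1 and 0.65 for Rps6kb2. Larp1, which holds back mRNAs of the translation machinery, was at -0.46, but at 0.08 as a mean over its kept probes. Both MAPK-interacting kinases, which phosphorylate eIF4E, were higher, Mknk2 at 1.80 and Mknk1 at 0.43.

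Among enzymes that modify the factors, 4 of 9 were lower (beside 25.7% of all genes tested) and 3 higher (beside 21.9%). Dhps, the first enzyme of hypusine synthesis on eIF5A, had 1.44, 1.44 and 1.43 on 3 arrays and was at 1.44 (limma, adjusted p = 0.000789), whereas Dohh, the second, was at 0.06. The genes that build diphthamide on eEF2 were split, with Dph3 (1.03) and Dph1 (0.69) higher and Dph2 (-1.05), Dph5 (-0.93), Dph7 (-0.87) and the cochaperone Dnajc24 (-0.49) lower.

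Of the factors for translation in mitochondria, 7 of 10 were lower (beside 25.7% of all genes tested) and 1 higher (beside 21.9%). Their median was -0.56. Tufm, the mitochondrial counterpart of eEF1A, was at -0.999 and its exchange factor Tsfm at -0.98, while Mtif3, an initiation factor, was higher at 0.74. Proliferation markers were lower in the same RNA, and their part in this result was not tested. Of 5 measured poly(A)-binding proteins and partners, Paip1 was lower (-0.64), and Pabpc1 was at -0.29 and not called. Of 6 other initiation helpers, Mcts1 (-0.53) and the helicase Ddx3x (-0.47) were lower. Of 5 measured termination and recycling factors, Abce1, which splits ribosomes, was lower (-0.56). Of 6 genes for selenocysteine elongation, Secisbp2 (-0.42) and Pstk (-0.40) were lower. None of these last 4 lists held a gene called higher. Of all genes tested, 25.7% were lower and 21.9% higher, so the few lower calls in these lists are not read as a result.

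**Figure D4:**
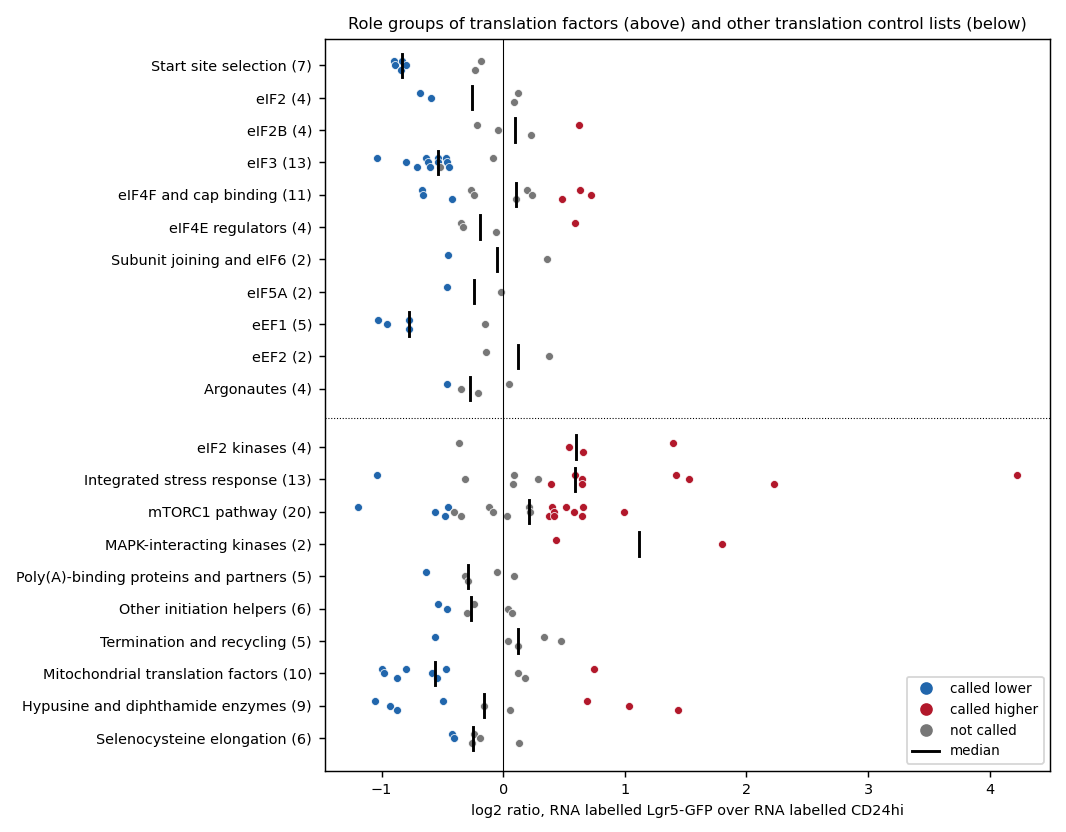
Log2 ratio of each measured gene by role group (above the dotted line) and by list of related translation genes (below), coloured by call, with the median as a black line and the number measured in brackets. The eIF3 median is -0.54 and that of the eIF2 kinases 0.60.

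Genes that bear an Eif or Eef symbol only in RefSeq were outside the rule. Eif2d, named Lgtn in the files, was at 0.46 (limma, adjusted p = 0.0474), and the lysine methyltransferase gene Eef1akmt4 at 0.69 (limma, adjusted p = 0.00785). The files name the latter Ece2, so which of these genes the value reports is uncertain. Eef1akmt2 (-0.41), Eef2kmt (0.27), Eef1akmt1 (0.14) and Eef1aknmt (0.01) were not called.

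Promoter sequences were set beside the calls. RefSeq promoters (build GRCm38.p6) were matched for 47 members, and the 250 bases before each start were searched for the E-box CACGTG, a site of MYC and related factors that reads the same on both strands. It was present in 11 of 47 members (23.4%), beside 959 of 9886 genes tested on the arrays (9.70%) and 1854 of 27025 genes in the RefSeq table (6.86%). By call, it was in 4 of 22 lower, 1 of 3 higher and 6 of 21 uncalled members, so it was present on both sides of 0. The motif CCGGAAGT of ETS factors, searched on both strands, was in 5 of 47 members (10.6%), beside 634 of 9886 tested genes (6.41%). It was in 3 of 22 lower and 0 of 3 higher members. A match describes letters in this window and not a bound site. Eif5a2, called lower, had matches at 142 and 117 bases before the start and is not shown. Eif4g1, Eif4a1 and Eif4h give both directions within eIF4F, and Eif3k is an eIF3 gene. The E-box windows of these 4 called genes are shown, with the motif in capitals. They lie at chr16:20672653-20672698 (plus strand), chr11:69672587-69672632, chr5:134639480-134639525 and chr7:28981907-28981952 (minus strand for the last 3).
Eif4g1: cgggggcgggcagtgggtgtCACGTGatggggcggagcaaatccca
Eif4a1: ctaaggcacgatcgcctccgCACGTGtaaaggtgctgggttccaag
Eif4h: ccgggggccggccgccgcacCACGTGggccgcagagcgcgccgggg
Eif3k: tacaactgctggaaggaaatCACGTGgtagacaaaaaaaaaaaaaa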

How the data were processed

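The members, lists and tests were chosen with earlier results of these data known, including the choice to leave out non-uniform backgrounds. Per the file headers, arrays were read with Feature Extraction 10.5.1.1, and the deposited intensity values are mean spot brightness and median local background, not normalized. The deposited log10 ratio is red over green of the software's processed signals. The deposited log2 table follows it (r across probes of 0.923 to 0.986). Its column medians were -0.01, 0.03, -0.01 and -0.01, and its method of normalization is unknown here.

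Labelling used linear amplification of 300 ng of total RNA, per the labels. Median spot signals were 109, 4377, 94.2 and 164 for the RNA labelled Lgr5-GFP and 197, 1358, 169 and 110 for the RNA labelled CD24hi (first array, then swap, replicate 1 before replicate 2). No spot was saturated. The number of arrays limits the precision.

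Spots with a non-uniform background were left out, then normexp (offset 50) and global loess were applied in limma 3.58.1 (R 4.3.3). Spots marked as outliers were left out. Ratios were taken as red over green, and those of the first arrays were turned, so that all had the RNA labelled Lgr5-GFP on top. The mean of first array and swap gave each replicate's ratio. Where 1 of the 2 arrays had no value, the other stood alone. In replicate 1 this held for the 19 members without a value on the dye swap. Limma tested the 2 ratios against 0 (2-sided, 1 residual and 4.68 prior degrees of freedom, Benjamini-Hochberg over 14806 genes). The brightest kept probe stood for a gene. RefSeq (GRCm38.p6) named 27041 gene spots, 16338 kept the file's name, and 59 of 60 members matched. Array values were named for up to 4 called genes per role, for genes called higher and for preset paralogs. From each list, up to 4 called genes and 2 further ones were named, and values for a few other genes were chosen after being seen. Scripts were tested on simulated data. Alternatives covered background, normalization, marked spots, filters, probes, arrays left out, the series table and a replicate block.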

Additional observations from a re-analysis of the deposited data

How the results depend on the processing

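Of the 33 called genes, 32 kept their direction in all of the 17 tested alternatives that measured them. The exception was Eif3b (0.14 as a mean of kept probes). Only 8 of the 33 were called in all but 2 or fewer of the alternatives that measured them. Among these, Eif1a, Eif1ay, Eif2s3x, Eif4g1 and Eif5a2 had a value in 15 of the 17. They had none on the dye swaps alone or without the first array of replicate 1, so those settings could not test them. Of the 25 uncalled genes, 12 had ratios on both sides of 0 over the alternatives. The number called lower was 28 in the main setting and 17 with the processed signals (29.3%, beside 28.2% of all genes). It was 16 with marked spots kept (27.6%, beside 15.4%) and 2 with non-uniform backgrounds kept (3.45%, beside 3.21%). On the dye swaps alone it was 1 of 41 measured (2.44%, beside 7.91%). Without the first array of replicate 1 it was 0 of 41 (beside 8.01%). The number called higher was 5 in the main setting. It was 3 without background subtraction (5.17%, beside 17.9% of all genes) and with median centring (5.17%, beside 15%), and 2 in the series table (3.45%, beside 18.9%). It was 0 on the dye swaps alone (beside 8.19%) and without the first array of replicate 1 (beside 8.3%). It was also 0 with marked spots kept (beside 9.63%) and with non-uniform backgrounds kept (beside 4.21%). It was 11 (19%) without the dye swap of replicate 1 (beside 26.9%) and on the first arrays alone (beside 26.5%). In the 4 settings with 0, limma gave 3, 2, 0 and 0 members higher at an unadjusted p under 0.05 (non-uniform backgrounds kept, marked spots kept, without the first array of replicate 1, dye swaps alone). The median was -0.54 with median centring and in the series table and -0.53 on the dye swaps alone. Median centring moved the median of all genes from -0.07 to -0.25 (5395 lower and 2219 higher calls, beside 3806 and 3247), and the series table moved it to -0.17. With non-uniform backgrounds kept, 1099 genes were called in all (476 lower and 623 higher). Among reversals in which 1 of the values was called, the ratio was 0.31 for Eif5a without the dye swap of replicate 1 and 0.61 on the first arrays alone and, as the log2 ratio of Larp1, 0.078 as a mean of kept probes. The log2 ratio of Rps6kb2 was -0.013 on the dye swaps alone. Fewer genes had a value once the first array of replicate 1 was left out (6021). The causes of the shifts between settings were not tested. With the replicate as a random block over 4 arrays, 30 members were lower (51.7%, beside 30.7% of all genes) and 6 higher (10.3%, beside 24.9%). The consensus correlation was -0.03. Each ratio compares both RNAs on 1 array, so the test of ratios against 0 is itself paired. Of the 60 members, Eif2b3 and Eef1a2 lacked signal well above background.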
